A study of Homo sapiens with 12 samples.

Results

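The comparison described here is the guide effect in interferon-treated HT1080 cells: 4 libraries from cells with a guide RNA against an LTR8B element in SP140, set against 2 libraries from cells with a guide RNA against GFP. HT1080 is a human fibrosarcoma line. All cells stably expressed dCas9, the cleavage-deficient Cas9 of CRISPR interference, and one of the guides, under blasticidin and puromycin selection. The 6 libraries were chosen by their labels from a series of 12, and all 6 came from cells treated for 4 h with 10 U/mL of interferon beta (IFNB). The other 6 libraries (2 GFP, 4 LTR8B) came from untreated cells; they entered the model's estimate of the spread and are shown beside genes of this comparison. The labels do not say whether each guide line was a clone or a pool, or whether replicates were separate cultures, so p-values measure the spread between these libraries, which may be technical, and a difference between the guides cannot be told apart from one between the particular lines. Polyadenylated RNA was measured as counts per gene, and 16393 of 60669 gene identifiers had enough counts to be tested.

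LTR8B is a long terminal repeat left by an endogenous retrovirus. Long terminal repeats carry promoter and enhancer sequence, and dCas9 placed on such an element is used to ask which genes depend on it. SP140 belongs to the speckled protein family of nuclear body proteins, has a bromodomain and a PHD finger, and is known mainly from immune cells as a chromatin reader that represses transcription. IFNB acts through its receptor and JAK kinases on transcription factors that bind the interferon-stimulated response element and raise a large set of antiviral genes.

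Total counts ran from 12404270 (LTR8B IFNB replicate 3) to 21772444 in the 6 libraries, so 3 counts, the limit that a count of 0 allows, came to 0.140 to 0.244 CPM for counting error only; CPM is a gene's count scaled to a library total of 1000000. The first principal component of these libraries held 26.65% of their variance and had both GFP libraries on the negative side and all 4 LTR8B libraries on the positive side. GFP IFNB replicate 2 lay farthest out on it, and LTR8B IFNB replicates 3 and 4 stood apart from each other on the second, which held 23.5%. Gene counts and several list results are given with and without GFP IFNB replicate 2. For LTR8B IFNB replicates 3 and 4, mostly the ranges over all leave-one-out fits are given. Of 16 mesenchymal markers, 15 were tested, and VIM, an intermediate filament of mesenchymal cells, was at a mean of 3264 CPM in the GFP libraries and 3552 CPM in the LTR8B libraries. The defining markers EPCAM (epithelial), PTPRC (haematopoietic), KDR (endothelial) and SOX10 (neural) had at most 3 counts in any of the 6 libraries. Other members of those lists were expressed. In the GFP libraries the means were 277 CPM for KRT8 (epithelial), 814 for LCP1 (haematopoietic), 165 for TIE1 (endothelial) and 30.8 for NCAM1 (neural). Not every mesenchymal marker was high, and COL1A1 was at a mean of 2.59 CPM there.

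SP140, the gene that holds the targeted element, was almost silent in the cells with the LTR8B guide. It lies on chromosome 2 at 230203110 to 230313215 (hg38, plus strand; ENSG00000079263.19). Its level was 32.0 and 29.8 CPM in the 2 GFP libraries and 1.48, 1.07, 1.46 and 0.901 CPM in the 4 LTR8B libraries. The groups were more than an order of magnitude apart, and every LTR8B library still held SP140 above the limit for a count of 0. The LTR8B mean was 3.98% of the GFP mean, which is -4.67 on a log2 scale (SE 0.21, edgeR adjusted p = 3.33e-09). Leaving out any 1 of the 6 libraries kept the edgeR adjusted p at or below 2.52e-07, and the fold change between -4.79 and -4.54. The exact two-sided permutation p over the 15 arrangements of the 6 libraries was 0.0667, the smallest they can give.

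SP140 shares its promoter region with SP110, a nuclear body protein of the same family encoded on the other strand. RefSeq on GRCh38.p14 places the start of SP140 at 230225736 and that of SP110 at 230225636, 100 bases apart and pointing away from each other. In the GENCODE release 29 annotation the 2 genes overlap on opposite strands. There, SP140 has transcripts that start at 230203110 and 230203624, within SP110 (230167293 to 230225729). Some reads of the 2 genes may therefore not be told apart. The 30 bases around the SP140 start are shown because they hold a match to a spaced GAAA pair of the kind found in interferon response elements, beside such a match in the promoters of IFIT1 and ISG15, a pair of standard interferon-stimulated genes. Capitals mark the match to GAAANNGAAA or GAAANNNGAAA on either strand, and each sequence runs 5′ to 3′ on the plus strand, on which all 3 genes are read.
SP140 (chr2:230225717-230225746): gttaggcaaTTTCACTTTTCttttcctctt
IFIT1 (chr10:89392510-89392539): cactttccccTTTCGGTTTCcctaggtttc
ISG15 (chr1:1013380-1013409): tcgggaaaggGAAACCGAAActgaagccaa
The SP140 match has 3 bases between the GAAA repeats on the other strand, and IFIT1 and ISG15 have 2. The SP140 match ends on the SP140 start. It also lies before the SP110 start, within 100 bases, so the letters do not assign it to either gene. In windows of 300 bases, from 250 before to 50 after each start, GAAANNGAAA was found for 4.09% of the tested genes with an entry and GAAANNNGAAA for 3.12%. The same shares over the 57 core interferon-stimulated genes with an entry were 66.7% and 12.3%. Among the 48 genes with an entry that differed between the guides, 1 (SEMA3F) held the first motif and 2 (SP140, SIGLEC15) the second, and none of the 30 higher genes with an entry held either. These letters describe the windows only.

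IFNB raised SP110 in GFP cells by 2.95 on the log2 scale (edgeR adjusted p = 3.78e-13), while SP140 differed by 0.03 (edgeR adjusted p = 0.966). With IFNB, SP110 stood at 205.5 and 199.4 CPM in the GFP libraries and at 172, 177, 183 and 162 CPM in the LTR8B libraries. The groups did not overlap, but the log2 difference of -0.22 (SE 0.08) did not pass the threshold (edgeR adjusted p = 0.344). In untreated cells SP110 fell by 0.62 (SE 0.09, edgeR adjusted p = 0.00144), and its interaction of guide and IFNB was 0.40 (edgeR adjusted p = 0.996). The paralogs SP140L and SP100, farther along the same strand, overlapped between the guides. SP140L was at 83.9 and 72.9 CPM against 75.6, 85.2, 82.1 and 85.3 CPM, a log2 difference of 0.07 (SE 0.08). SP100, which organises PML nuclear bodies, was at 285.5 and 287 CPM against 294, 279, 296 and 269 CPM, a log2 difference of -0.01 (SE 0.06). None of the 6 tested genes within 200 kb of SP140 passed the threshold, where 1 of them (SP110) had an unadjusted p below 0.05.

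**Figure D1:**
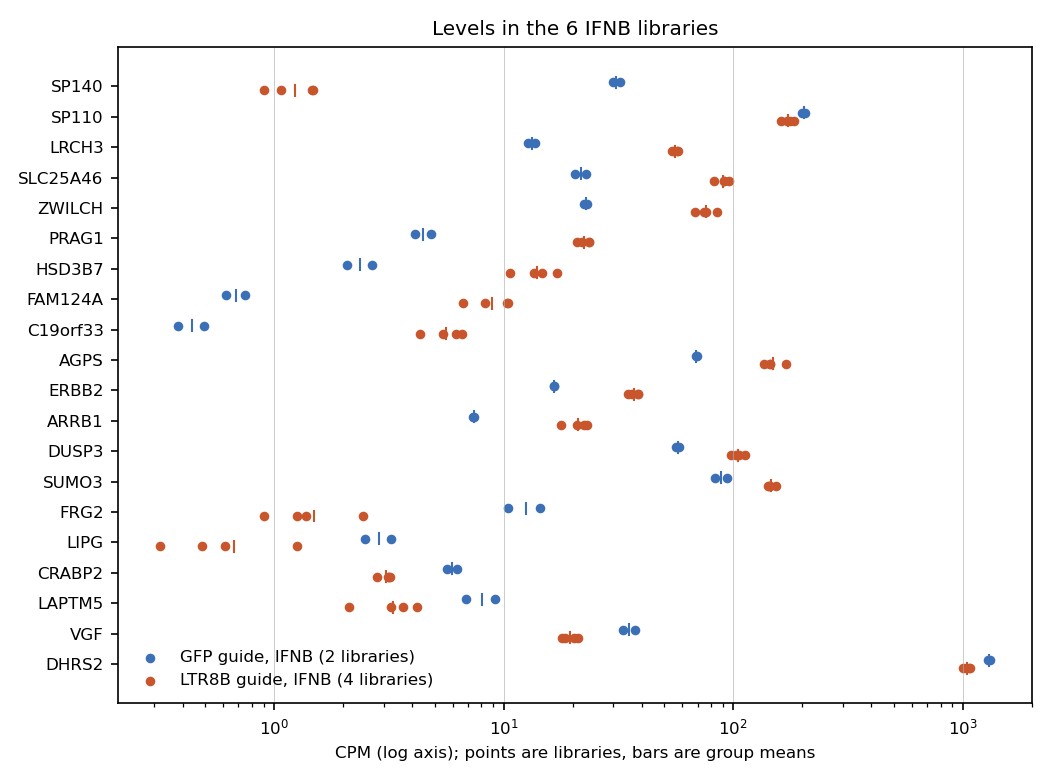
CPM on a log axis for 20 genes (rows) in the 6 IFNB libraries, with points for libraries and bars for group means. SP140 falls from about 30 CPM with the GFP guide (blue) to between 0.901 and 1.48 CPM with the LTR8B guide (orange), and in every row the groups do not overlap.

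Across the transcriptome the guide difference with IFNB passed the test for a small set of genes. At an adjusted p under 0.05, 58 of the 16393 tested genes differed (0.354%), 38 of them higher (0.232%) and 20 lower (0.122%). At least 2-fold changes were found for 16 of the higher and 9 of the lower genes. The median log2 fold change was 0.71 over the 38 higher genes and -0.97 over the 20 lower genes, and -0.00 over all tested genes. All 58 had groups that did not overlap, where 9.6% of all tested genes lay wholly higher and 9.43% wholly lower. Unadjusted p was below 0.05 for 1554 genes. DESeq2 called 120 genes (82 higher, 38 lower), and edgeR without a low-count filter 260, of which 118 were higher and 142 lower. The count depended on GFP IFNB replicate 2: without it 21 genes passed, 17 higher and 4 lower, and 40 of the 58 lost the call. Without LTR8B IFNB replicate 2, 37 genes passed. In every leave-one-out fit 17 of the 58 kept their call, 16 higher genes and, among the lower ones, only SP140.

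**Figure D2:**
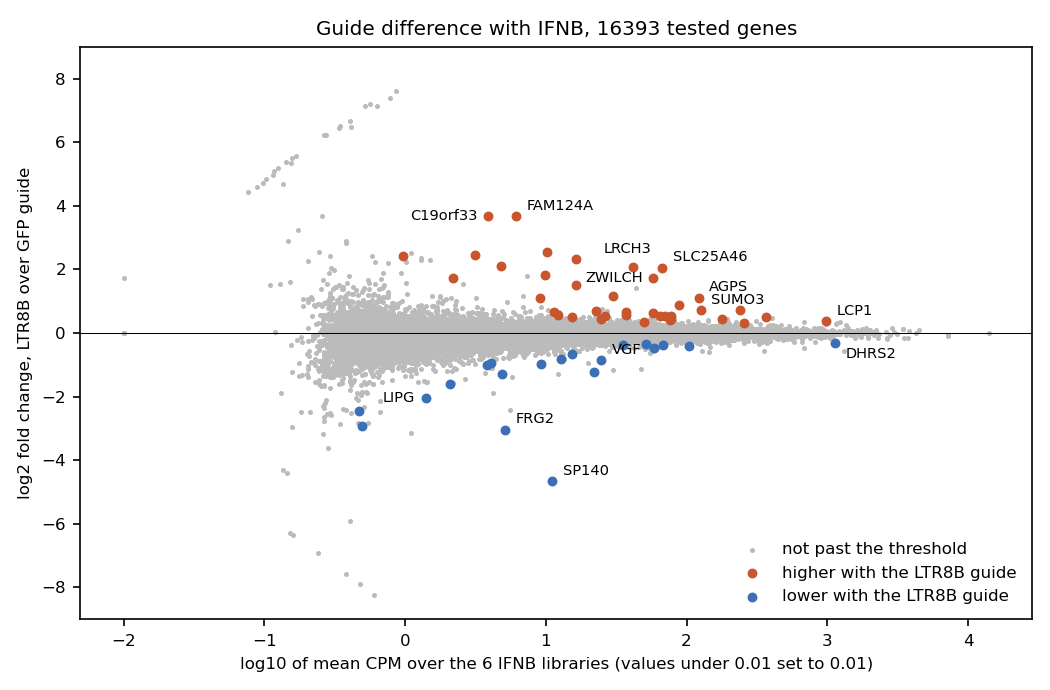
Log2 fold change of the LTR8B over the GFP guide with IFNB (vertical axis) against the log10 of mean CPM (horizontal axis) for 16393 tested genes. The 38 higher genes (orange) and 20 lower genes (blue) stand outside a grey cloud centred near 0, and the most distant grey points have a mean under 1 CPM.

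Among the genes that rose with the LTR8B guide, LRCH3, SLC25A46 and ZWILCH were well expressed and more than 3-fold higher. LRCH3, a leucine-rich repeat protein with a calponin homology domain (chromosome 3, 197791226 to 197888436), had the smallest adjusted p of all tested genes. It stood at 13.7 and 12.8 CPM in the GFP libraries and at 57.4, 56.8, 54.3 and 55.1 CPM in the LTR8B libraries. That is a 4.21-fold rise (log2 2.07, SE 0.08, edgeR adjusted p = 1.65e-10), and the 4 LTR8B libraries lay close together. SLC25A46, a carrier-family protein of the outer mitochondrial membrane that acts in mitochondrial dynamics, was at 20.5 and 22.8 CPM and at 91.2, 82.6, 91.3 and 96.0 CPM. It rose 4.17-fold (log2 2.06, SE 0.12, edgeR adjusted p = 1.28e-08). ZWILCH, a subunit of the RZZ complex that recruits dynein and checkpoint proteins to kinetochores, was at 23.1 and 22.5 CPM and at 74.5, 76.0, 67.9 and 85.3 CPM. Its rise was 3.34-fold (log2 1.74, SE 0.10, edgeR adjusted p = 1.28e-08). It overlaps RPL4 and LCTL, which lie on the opposite strand and whose log2 differences were 0.09 and -0.04, neither past the threshold.

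Several enzyme genes were also among the higher genes. HSD3B7, which catalyses an early step of bile acid synthesis from hydroxylated cholesterol, was at 2.67 and 2.09 CPM in GFP libraries and at 13.6, 14.7, 17.1 and 10.7 CPM in LTR8B libraries (log2 2.54, SE 0.19, edgeR adjusted p = 5.31e-07). AGPS, the peroxisomal enzyme that forms the ether bond of plasmalogens, was at 68.7 and 69.3 CPM and at 145, 137, 145 and 171 CPM. It rose 2.16-fold (log2 1.11, SE 0.09, edgeR adjusted p = 2.36e-06). MSRB1, which reduces oxidised methionine, rose by 1.83 on the log2 scale from 3.62 to 12.9 CPM, and HDDC3, a nucleotide phosphohydrolase, by 1.09 from 5.22 to 11.1 CPM. PTGS1, the cyclooxygenase that opens prostaglandin synthesis, rose by 1.73 (SE 0.29) from 0.854 to 2.88 CPM, a call that ended without either GFP library (edgeR adjusted p up to 0.156).

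Genes of signalling proteins were among the higher genes too. PRAG1, a pseudokinase that binds the tyrosine kinase CSK, was at 4.82 and 4.13 CPM and at 21.0, 23.5, 23.5 and 22 CPM (log2 2.33, SE 0.12, edgeR adjusted p = 3.33e-09). ERBB2, the HER2 receptor tyrosine kinase, was at 16.6 and 16.5 CPM and at 36.4, 38.6, 38.3 and 34.8 CPM. Its rise (log2 1.16, SE 0.12, edgeR adjusted p = 1.89e-05) was not shared by the genes annotated as overlapping it, MIEN1 (log2 0.24, SE 0.09) and PGAP3 (log2 -0.14, SE 0.18), which did not pass. ARRB1, the receptor adaptor beta-arrestin 1, was at 7.39 and 7.46 CPM and at 22.5, 20.8, 23.2 and 17.8 CPM (log2 1.499, SE 0.14, edgeR adjusted p = 8.06e-06). DUSP3, a phosphatase of MAP kinases, was at 58.2 and 56.2 CPM and at 97.5, 103, 106 and 113 CPM (log2 0.87, SE 0.08, edgeR adjusted p = 5.26e-06). Smaller rises were found for MAPKAPK3, a kinase downstream of p38 (log2 0.55), for LATS2, a kinase of the Hippo pathway (log2 0.35), for CCDC88C, a Dishevelled-binding protein of Wnt signalling (log2 0.44), and for FST, the secreted activin antagonist follistatin (log2 0.62). Those 4 calls ended without GFP IFNB replicate 2.

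The 2 steepest rises were in FAM124A and C19orf33, both barely detected with the GFP guide. FAM124A was at 0.620 and 0.746 CPM in the GFP libraries and at 10.4, 8.27, 10.3 and 6.63 CPM in the LTR8B libraries (log2 3.69, SE 0.33, edgeR adjusted p = 8.27e-06). C19orf33, a small nuclear protein gene, was at 0.381 and 0.497 CPM and at 6.17, 5.46, 4.31 and 6.57 CPM (log2 3.68, SE 0.32, edgeR adjusted p = 5.26e-06). From low levels too, the histone gene H2BC15 rose by 2.46 from 0.784 to 4.30 CPM, and the antisense transcript TRIM52-AS1 by 2.09 from 1.51 to 6.42 CPM. H2BC15 is one of many near-identical histone genes that can share reads, so its level is uncertain. No gene was at 0 counts in every library of one guide and at 10 or more in every library of the other.

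Further up the range of expression, the rises were smaller. SUMO3, a ubiquitin-like modifier attached to many nuclear body proteins, was at 93.7 and 83.0 CPM and at 145, 142, 153 and 143 CPM (log2 0.72, SE 0.07, edgeR adjusted p = 1.87e-05). BCOR, a corepressor in a Polycomb complex, rose by 0.66, and LUC7L2, a splicing factor of the U1 particle, by 0.54. The readthrough gene FMC1-LUC7L2, which can share reads with LUC7L2, differed by 0.60 and lay just outside the threshold (edgeR adjusted p = 0.0537). ANKRD1, a target of YAP, rose by 0.74 from 167 to 279 CPM, with LTR8B libraries from 238 to 340.5 CPM. The actin-bundling protein gene LCP1, well expressed in this line, was at 845 and 783 CPM and at 1025, 1107, 990 and 1105 CPM (log2 0.38, SE 0.08, edgeR adjusted p = 0.0493), a call lost in all 6 leave-one-out fits and in limma-voom. The remaining higher genes were GPNMB (log2 0.69), GALNT16 (0.67), MFGE8 (0.58), SGSH (0.56), SCPEP1 (0.54), MOGS (0.53), TSHZ1 (0.52), AMIGO2 (0.50), THBS1 (0.44), SERPINH1 (0.43), BLOC1S2 (0.42) and COL4A1 (0.33), with ENSG00000213963 described with AGPS below. SGSH is a lysosomal sulfatase, MOGS and GALNT16 act on glycans, and SERPINH1 is a collagen chaperone. Of these, each lost its call without GFP IFNB replicate 2.

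Fewer genes fell, and apart from SP140 each of them lost its call in at least 1 leave-one-out fit. FRG2, a gene from the subtelomere of chromosome 4 with near-identical copies elsewhere, was at 10.4 and 14.5 CPM in GFP libraries and at 2.45, 1.26, 1.383 and 0.901 CPM in LTR8B libraries (log2 -3.04, SE 0.36, edgeR adjusted p = 0.00261). The groups did not overlap, and without GFP IFNB replicate 2 the adjusted p was 0.0523, the largest over the leave-one-out fits. VGF, a secreted neuropeptide precursor, was at 37.3 and 33.1 CPM and at 20.4, 18.6, 21.1 and 17.97 CPM (log2 -0.85, SE 0.12, edgeR adjusted p = 0.00187). The VGF call ended without GFP IFNB replicate 1.

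Lipases and lipid-binding proteins were among the lower genes. LIPG, the endothelial lipase, was at 2.48 and 3.23 CPM and at 0.612, 1.26, 0.488 and 0.318 CPM (log2 -2.03, SE 0.36, edgeR adjusted p = 0.0159). LIPH, a phospholipase that forms lysophosphatidic acid, was at 0.667 and 1.39 CPM and at 0.140 to 0.244 CPM, which is 3 or 4 counts a library, and 3 of the 7 alternatives other than leave-one-out kept its call. CRABP2, which carries retinoic acid to its receptors, fell by 0.96 from 5.97 to 3.08 CPM (SE 0.15, edgeR adjusted p = 0.00366). The secreted axon-guidance proteins SEMA3B and SEMA3F fell by 0.98 and 0.40, from 13.6 to 6.93 CPM and from 125 to 94.7 CPM. LAPTM5, a lysosomal membrane protein of blood cells, fell by 1.29 from 8.03 to 3.30 CPM. The most abundant lower gene was DHRS2, a dehydrogenase/reductase, at 1320 and 1285 CPM and at 1062, 1075, 1038 and 1002 CPM (log2 -0.32, SE 0.06, edgeR adjusted p = 0.0238), a call lost in all 6 leave-one-out fits. ENSG00000184906 was at 1.10 and 1.29 CPM and at 0.0813 to 0.255 CPM, around the limit for a count of 0. Others were LINC01411 (log2 -1.60), CILP (-1.02), TMEM132B (-0.80), CREB5 (-0.67), PARP16 (-0.48), SIGLEC15 (-0.39), JPH4 (-0.36) and SRPX (-0.33).

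At the edge of the threshold, LCP1, SRPX and SGSH were just inside (edgeR adjusted p = 0.0493, 0.0493 and 0.0499). ENSG00000173867, FMC1-LUC7L2 and IL7R were just outside (edgeR adjusted p = 0.0517, 0.0537 and 0.0541).

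The differing genes lay mostly apart from each other in the genome. Among the 9 genes whose surroundings were examined (SP140 and the 8 others with the smallest adjusted p), 65 tested neighbours lay within 200 kb and 1 of them passed, ENSG00000213963. That gene overlaps AGPS at its start on the opposite strand (chromosome 2, 177283508 to 177392691) and rose from 0.244 to 1.33 CPM (log2 2.41, SE 0.43, edgeR adjusted p = 0.0158). It also shares its strand and position with NFE2L2, the oxidative stress regulator, which was at 103 and 111 CPM and did not pass (log2 0.11, SE 0.07). SLC25A46 had a single tested neighbour, TMEM232 on the opposite strand, at means of 0.0497 and 0.344 CPM (log2 2.55, SE 0.94, edgeR adjusted p = 0.397). Whether counting used strand is not given in the sources used here. Reads from overlapping genes may therefore not be fully told apart, and 14 of the 58 genes overlap a tested gene on the opposite strand. Of all 58, 7 pairs lay within 500 kb, and 5 of these moved the same way: ARRB1 with SERPINH1, JPH4 with DHRS2, CILP with PARP16, SEMA3F with SEMA3B, and AGPS with ENSG00000213963. By chromosome, the most positive median log2 difference was that of chromosome 13, 0.08 over 294 tested genes, where FAM124A, LCP1, LATS2 and COL4A1 rose and no gene fell. In the untreated libraries the chromosome 13 median was 0.15.

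The same measure was available in the 6 untreated libraries, none of which is in the contrast with IFNB, though they share its estimate of the spread. Within each guide line, deviations of untreated and IFNB libraries of the same replicate number correlated positively (0.102 to 0.659 over 6 pairs). The treatments may therefore not be independent replicates of the guide effect. In groups of 2 libraries the deviations mirror each other, so both GFP values are necessarily the same (0.244). For LTR8B untreated replicate 3 the matched value of 0.102 was below that with IFNB replicate 4 (0.269), so pairing is not shown for every number. All 58 genes had the same sign in the untreated libraries, 57 of them with groups that did not overlap. The matching shares over all tested genes are not given here, so these 2 counts have no background to be read against. Of the 58, 40 passed the threshold in the untreated comparison, in which 59 genes passed (0.36%). LRCH3 differed by 2.13, SLC25A46 by 2.28, ZWILCH by 1.84, AGPS by 1.25 and SP140 by -4.55 in untreated cells, close to the values with IFNB. The 18 genes that passed with IFNB and not without it included PTGS1 (1.13 untreated), MAPKAPK3 (0.34), FST (0.33), LIPG (-1.61), LIPH (-1.55), CRABP2 (-0.61), LAPTM5 (-0.95) and CREB5 (-0.29). The interaction of guide and IFNB, which tests that difference itself, passed for 0 genes in edgeR, and no other tool was run. An unadjusted edgeR p below 0.05 was found for 489 of the 16393 genes. That fit had no term for the replicate number, so it took no account of the correlations given above. CREB5 (log2 -0.38), ENSG00000213963 (-2.16) and C19orf33 (1.09) were among those 489, each with an adjusted p of 0.996. With guide line and replicate number together as a block, an alternative added after seeing the data, 4 genes passed (H3P6, MIR3648-2, ENSG00000279872 and ENSG00000280096; edgeR adjusted p = 0.00383 to 0.0387). Each of these was at 0 counts in 7 to 10 of the 12 libraries, and none is among the 58. In that blocked edgeR fit 1027 genes had an unadjusted p below 0.05.

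**Figure D3:**
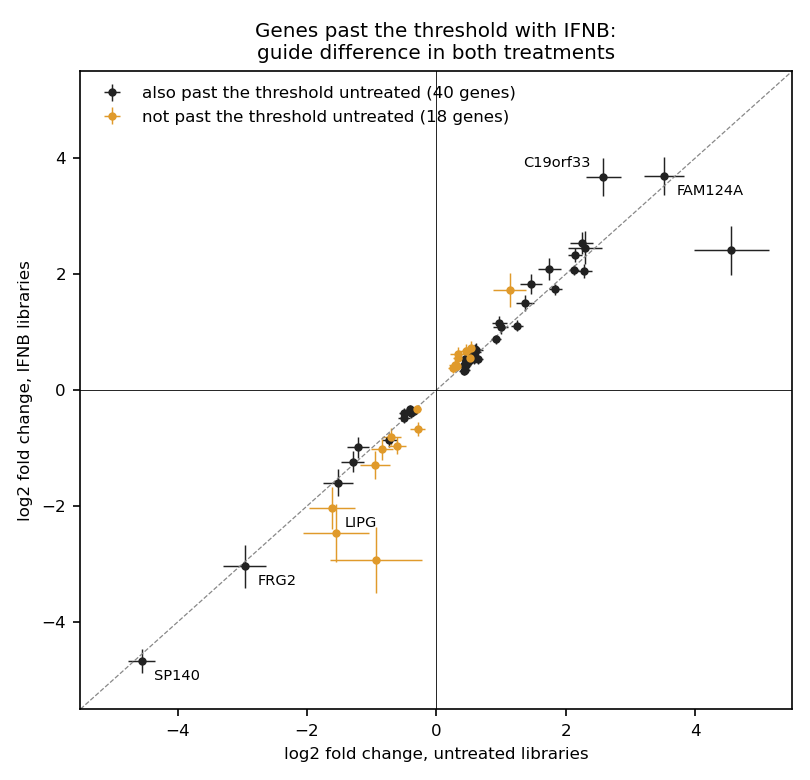
Log2 fold change of the LTR8B over the GFP guide for the 58 genes, with IFNB (vertical axis) against untreated (horizontal axis), bars showing the SE and the dashed line equality. All 58 points lie at the lower left or upper right, with 40 genes past the threshold in both treatments in black and 18 past it with IFNB only in yellow.

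Of the 58 genes, 2 also responded to IFNB in GFP cells, LATS2 (log2 0.36) and FST (log2 0.70). In those cells IFNB raised 502 genes (3.06%) and lowered 22 (0.134%), and this comparison shares the GFP IFNB libraries with the guide comparison.

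Core interferon-stimulated genes stood high with IFNB in both lines, and none differed between the guides past the threshold in edgeR. Of 77 core interferon-stimulated genes 74 were tested, and IFNB raised 72 of them in GFP cells, with a median log2 change of 3.08. With IFNB, 0 of the 74 differed between the guides in edgeR and in limma-voom, and 1 in DESeq2 (MX2). Over all tested genes the edgeR share was 0.354%, so 0 in a list of this size is near the background. An unadjusted p below 0.05 in edgeR was found for 12 of the 74, and for 1554 of all 16393 tested genes. The median difference was -0.10, beside -0.00 over all tested genes. Of the 74 differences 63 were negative, and 25 genes were lower in every LTR8B library than in both GFP libraries, where 9.43% of all tested genes were. Without GFP IFNB replicate 1, 46 were negative with a median of -0.06, and without replicate 2, 67 with a median of -0.12. In untreated cells the median was -0.01.

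MX2, a dynamin-like GTPase that blocks retroviral nuclear entry, differed most by p. It was at 185 and 188 CPM in the GFP libraries and at 148, 112, 139 and 94.0 CPM in the LTR8B libraries (log2 -0.60, SE 0.13, edgeR adjusted p = 0.0936). The groups did not overlap, and LTR8B IFNB replicate 4 was lowest. It passed under DESeq2, in edgeR without a low-count filter, with the replicate number as a block, and without LTR8B IFNB replicate 1 or 4. OASL, an oligoadenylate synthetase-like protein that augments RIG-I signalling, was at 61.5 and 53.5 CPM and at 42.2, 41.8, 51.7 and 38.5 CPM (log2 -0.41, SE 0.12, edgeR adjusted p = 0.249). OASL passed in edgeR without a low-count filter. MX1, the cytoplasmic relative of MX2, was at 13.9 and 14.2 CPM and at 11.6, 9.34, 10.8 and 8.27 CPM (log2 -0.49, SE 0.18, edgeR adjusted p = 0.394). At the other end APOL2 differed by 0.18 and GBP1 by 0.16.

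The interferon score, an average of log2(CPM + 1) across core list members, was 7.083 and 7.015 in the GFP IFNB libraries and 6.986, 6.908, 7.017 and 6.802 in the LTR8B IFNB libraries. The groups overlapped, and the difference of -0.121 had an exact two-sided permutation p of 0.2, where the smallest possible is 0.0667. LTR8B IFNB replicate 4 had the lowest score, and the counts of negative and wholly lower core genes are not given without it. In untreated cells the score was 3.716 and 3.785 in the GFP libraries and 3.680 to 3.753 in the LTR8B libraries. The signalling genes above this programme did not pass either. Of 22, 0 differed in edgeR, DESeq2 and limma-voom, which is near the share over all tested genes (0.354% in edgeR). An unadjusted p below 0.05 in edgeR was found for 3 of the 22, and for 1554 of all 16393 tested genes. Among them the receptor subunit IFNAR2 was at 15.2 and 18.8 CPM (log2 0.30, SE 0.11). STING1, the adaptor of cytosolic DNA sensing, was at 65.99 and 64.4 CPM and at 57.7, 52.9, 57.5 and 50.4 CPM, lower in all LTR8B libraries (log2 -0.26, SE 0.09, edgeR adjusted p = 0.356).

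**Figure D4:**
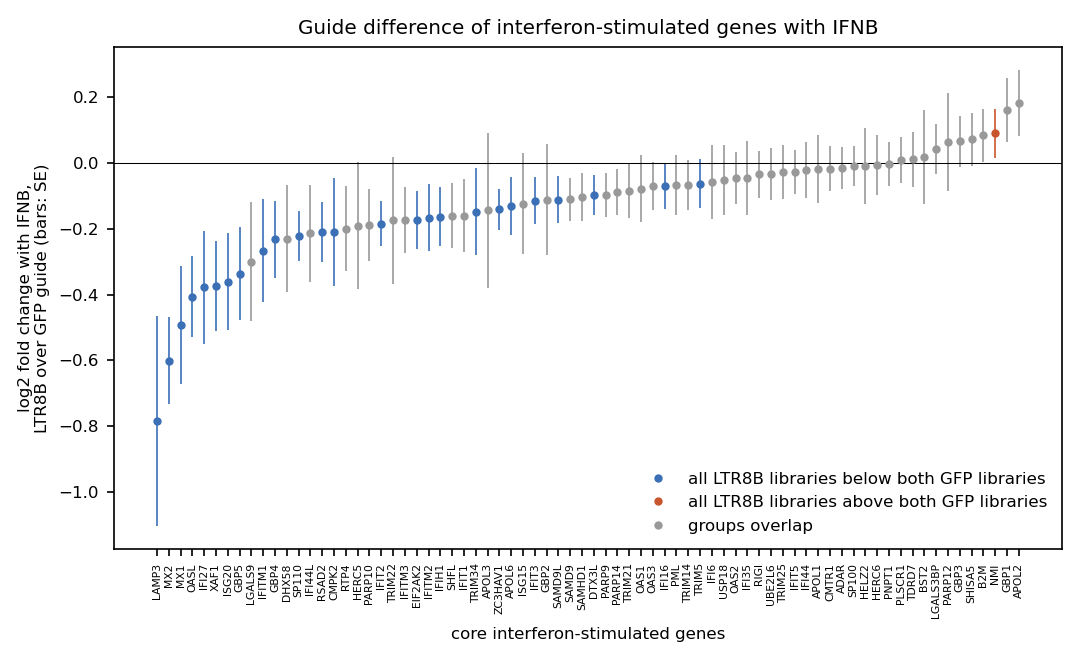
Log2 fold change with IFNB, LTR8B over GFP guide, for 74 core interferon-stimulated genes in order of the difference, bars showing the SE. Blue marks the 25 genes lower in all 4 LTR8B libraries than in both GFP libraries, and orange the 1 gene (NMI) higher in all 4.

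Beyond interferon, most gene lists held no differing gene, where 0.354% of all tested genes differed. The lists were chosen with earlier results of these data known, so their counts describe and test nothing. Of 48 extracellular matrix and mesenchymal genes, 3 rose (THBS1, an adhesive glycoprotein; COL4A1, a basement membrane collagen; SERPINH1) and 1 fell (CILP, a cartilage matrix protein), with a median of -0.04, where 0.232% of all tested genes rose and 0.122% fell. DESeq2 called 5 of the 48 higher and 1 lower. THBS1 was at 150.5 and 139 CPM and at 205, 196, 198 and 185 CPM. COL4A2, the partner chain of COL4A1 from the shared promoter, was at 363 and 432 CPM and did not pass (log2 0.25, SE 0.06, edgeR adjusted p = 0.141), except in DESeq2. Without GFP IFNB replicate 2 none of the 48 passed.

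Of 38 lipid and sterol genes, 2 rose (HSD3B7, PTGS1) and 2 fell (CRABP2, LIPG), with a median of -0.11. Without GFP IFNB replicate 2 only HSD3B7 was left. Of 46 cell cycle and kinetochore genes ZWILCH alone passed; 36 differences were positive, with a median of 0.03, but without GFP IFNB replicate 2 only 17 were. Of 12 speckled and nuclear body proteins SP140 alone passed. All 13 mitochondrially encoded genes had a negative difference, with a median of -0.15 and none past the threshold in edgeR, DESeq2 or limma-voom (2 at an unadjusted p below 0.05), and in untreated cells the median was 0.15. Without GFP IFNB replicate 2 the median was -0.05 with 11 negative, and MT-ND5, a subunit of complex I, passed in edgeR with the replicate block and without a low-count filter. A wider set than these 13, all genes with a symbol starting with MT-, was used for the share of counts. That share was 3.78% and 4.09% in the GFP libraries and 3.35% to 3.97% in the LTR8B libraries.

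Few cell type markers passed the test. The 15 tested mesenchymal markers had a median of -0.20, with 12 negative and none past the threshold in edgeR, DESeq2 or limma-voom (5 at an unadjusted p below 0.05). Their summed level was 4763 and 4517 CPM against 4713 to 4971 CPM. That sum is mostly VIM, whose difference was positive (log2 0.12), so it does not show the negative differences. Of 12 tested haematopoietic markers LCP1 rose and LAPTM5 fell, and 8 differences were negative with a median of -0.36. Of these markers 6 lay wholly lower and 1 wholly higher, and 5 had an unadjusted p below 0.05. Over all tested genes 9.43% lay wholly lower and 1554 of 16393 had such a p in edgeR. Wholly lower too were 6 of the 15 mesenchymal markers (0 wholly higher) and 4 of the 8 endothelial markers (1 wholly higher). The haematopoietic sum, nearly all LCP1, was 872 and 812 CPM against 1011 to 1124 CPM, while 8 further haematopoietic markers such as PTPRC and SPI1 were at or near 0. Of 8 tested neural markers VGF passed in edgeR, and NCAM1, a neural adhesion molecule, in DESeq2 as well as in edgeR without a low-count filter and with the replicate block. Of 8 endothelial and 3 epithelial markers none passed in edgeR, DESeq2 or limma-voom, with 5 and 0 at an unadjusted p below 0.05. CDH11 (mesenchymal) and TIE1 (endothelial), both lower with the LTR8B guide, passed in edgeR without a low-count filter. The other lists, for negative regulators of interferon signalling, interferon genes with SP140-linked factors, antigen presentation, NF-kB and chemokine genes, p53 targets, glycolysis and hypoxia, the unfolded protein and integrated stress responses, immediate early genes, heat shock, chromatin silencing and HOX genes, had 0 genes past the threshold in edgeR, DESeq2 and limma-voom. In edgeR without a low-count filter NLRC5, NR4A3 and VEGFA passed, NLRC5 also with the replicate block. Their medians ran from -0.08 (p53 targets; 0.03 without GFP IFNB replicate 2, with 15 of 25 positive) to 0.08 (immediate early genes), and from 0 to 6 of their members had an unadjusted p below 0.05.

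**Figure D5:**
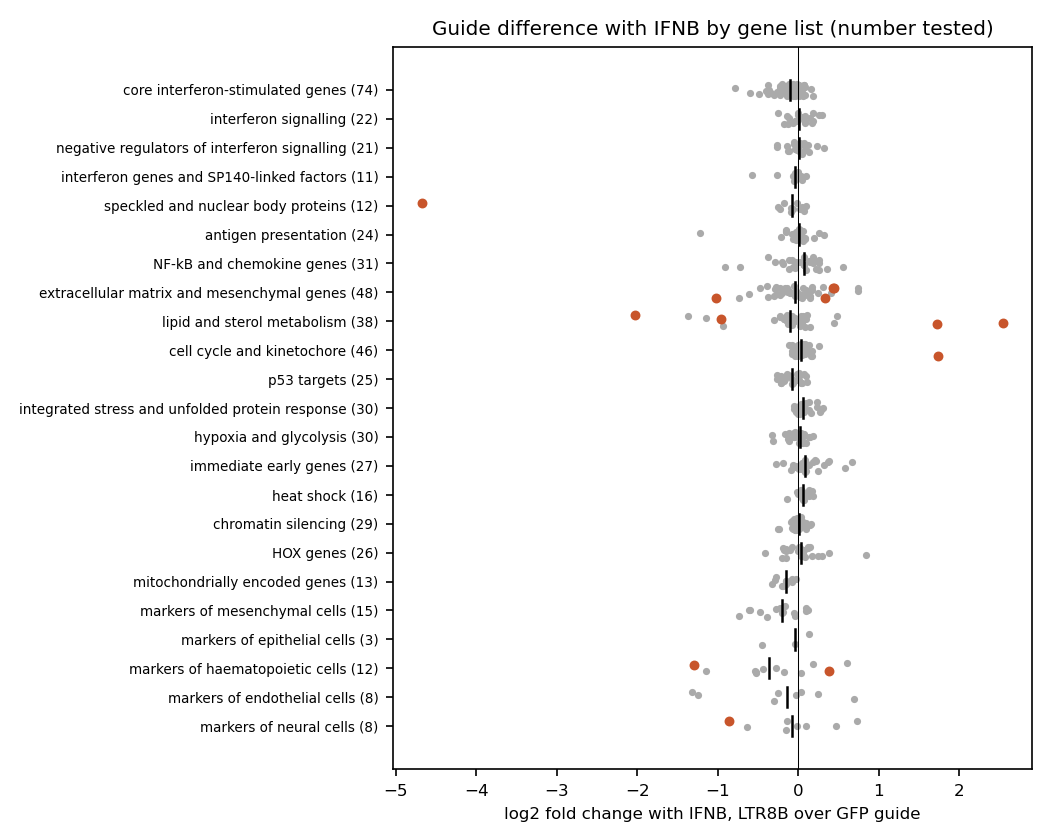
Log2 fold change with IFNB, LTR8B over GFP guide, for the tested members of 23 gene lists (rows, with the number tested), where black bars are medians and orange points genes past the threshold. Medians run from -0.36 (haematopoietic markers) to 0.08 (immediate early genes), and SP140 at -4.67 is the farthest point.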

How the data were processed

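Per the labels' protocols, polyA libraries were made with single or dual index adapters; which library had which is not stated, so no batch was tested. The authors deposited whole-number counts per gene; the submitters' processing notes name Salmon 0.13.1, DESeq2 1.38.3 and hg38, without their roles. A second, normalized table was not used. Of 60669 identifiers 42052 had a symbol, 58437 a GENCODE release 29 position, and 25271 were at 0 throughout.

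Here edgeR 4.0.16 (R 4.3.3) was used: filterByExpr (minimum count 10, total 15), TMM scaling, a robust quasi-likelihood fit of 12 libraries with 1 mean per group, and Benjamini-Hochberg adjustment over 16393 genes at 0.05. CPM is TMM-scaled, and mean ± SD were taken over libraries. Alternatives were DESeq2 1.42.0, limma 3.58.1 (voom), other filters and scaling, the 6 IFNB libraries alone, the replicate number as a block (for the interaction, line and number), and each library left out. The fit was tested on simulated data. Replicates differed with a chi-square per degree of freedom of 2.65 to 9.316, so none was a duplicate. Promoter windows came from RefSeq (GRCh38.p14).

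Named genes were the SP140 family, the 15 largest rises and falls past the threshold with a mean of at least 1 CPM, the 5 smallest adjusted p, up to 4 members per list with the smallest p, neighbours of SP140, and any other gene past the threshold. Genes overlapping a differing gene, those just outside the threshold, VIM, the untested defining markers, APOL2, GBP1, NMI and the 4 genes of the blocked interaction were named after their values were seen. Values of some named genes are not reported here. The comparison and the 23 lists were chosen with earlier results of these data known.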

Additional observations from a re-analysis of the deposited data

Results flagged for a closer look

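In the groups of 4 LTR8B IFNB libraries, 62 genes and scores were searched for a library far from the other 3, by the gap to its nearest neighbour over the whole range (above Dixon's critical value). Chance gives about 1 in 20, and 2 were found. SERPINH1 was at 75.27 CPM in LTR8B IFNB replicate 4, while the other 3 lay between 86.9 and 88.5 CPM (ratio 0.879). SCPEP1 was at 30.82 CPM in LTR8B IFNB replicate 2, while the other 3 lay between 28.78 and 29.12 CPM (ratio 0.834). Both genes were higher than in the GFP libraries in all 4. Without LTR8B IFNB replicate 4 SERPINH1 kept its edgeR call, and without LTR8B IFNB replicate 2 SCPEP1 lost it.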

How the results depend on the processing

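The number of differing genes moved with the tool and the filter: DESeq2 gave 120 (82 higher, 38 lower; 57 of the 58 among them), and edgeR without a low-count filter 260 (118 higher, 142 lower; 57 shared). limma-voom gave 50, RLE scaling 58, a mean CPM of at least 1 gave 59 and the 6 IFNB libraries alone 61. Leaving out 1 library gave 21 to 49 genes, 17 to 32 higher and 4 to 21 lower, with the lowest totals without GFP IFNB replicate 2 (21) and LTR8B IFNB replicate 2 (37). SP140 kept its call throughout (log2 -4.79 to -4.54). The interferon score difference was -0.127 with a pseudocount of 0.1, -0.116 with RLE scaling and -0.155 to -0.0792 over the leave-one-out values. Of 738 values for the other 57 genes past the threshold, 179 lost the call and none changed sign. Of 80 named genes not past it, 9 passed under some alternative. The replicate block gave 56 genes (38 higher, 18 lower), 40 shared with the 58. Within IFNB, deviations of same-numbered libraries of the 2 guides correlated at 0.0159 and -0.514 over 2 pairs. The deviations of the 2 GFP libraries mirror each other, so these values cannot show whether numbers pair the guides. Within a line, deviations of same-numbered libraries correlated positively across the treatments, though for LTR8B replicate 3 only at 0.102. With line and replicate block, added after seeing the data, the interaction passed for 4 genes in place of 0. With 2 GFP libraries, the spread in that group rests on the fit over all groups.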
